A study of Mus musculus with 18 samples.

Results

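The metallothioneins Mt1, Mt2 and Mt4 and the zinc exporter Slc30a1 were followed in mouse epidermis through an injury time course, with and without the aryl hydrocarbon receptor (AhR). The 4 genes were selected by symbol, with earlier results of these same arrays known, so their array values partly chose them and the tests below place them in the fit without being independent evidence. They lie on 5 of the 33793 rows of the deposited array table. Mt1, Mt2 and Mt4 have 1 row each, 3 of the 22180 genes named by a row. Slc30a1 is named on 2 rows that also name the long non-coding RNA 1700034H15Rik, so the values of those rows cannot be assigned to either gene and are given as those of the shared rows.

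RNA came from epidermal sheets of the shaved back of female mice, after tape stripping, a mechanical removal of the outer skin layers, and was measured on Affymetrix gene arrays. The 6 groups were AhR-/- mice (KO) and their AhR+/+ littermates (WT) at 0 h (unstressed), 6 h and 24 h, with 3 arrays in each and 18 in all. The knockout line is B6.129-AhRtm1Bra/J on a B6;129 background, and the loss of AhR is in all cells of the animal, not in keratinocytes alone. The sheets hold keratinocytes together with the T cells, Langerhans cells and melanocytes of the epidermis, and in such bulk RNA fewer cells of a type and less RNA per cell cannot be told apart. The study asked about the role of AhR in the skin barrier.

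Metallothioneins are small cysteine-rich proteins that bind zinc and copper. Mt1 and Mt2 are made in most mouse tissues, and their transcription is raised by zinc through the metal sensor MTF1, and also by glucocorticoids and oxidative stress. MTF1 binds a short promoter sequence, the metal response element. Mt4 is the metallothionein of mouse stratified squamous epithelia and is made in differentiating keratinocytes. Slc30a1 encodes ZnT1, which carries zinc out of the cell across the plasma membrane and is itself a target of MTF1. AhR, once bound by a ligand, pairs with ARNT and acts as a transcription factor on another short sequence, the xenobiotic response element.

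The metallothionein genes lie side by side on chromosome 8 (RefSeq, GRCm38.p6). Mt4 lies at chr8:94137204-94139031, Mt3 at chr8:94152607-94154148, Mt2 at chr8:94172618-94173567 and Mt1 at chr8:94178883-94180327. The gaps along this order are 13.6 kb, 18.5 kb and 5.32 kb. Slc30a1 lies at chr1:191906697-191913248, and 1700034H15Rik, at chr1:191894072-191907527, overlaps its start. The 250 bases before the annotated start of Mt4 (chr8:94136954-94137203) and of Mt2 (chr8:94172368-94172617), both on the plus strand, are shown. They were chosen because the KO minus WT estimates of these genes of the cluster at 6 h had opposite signs. The Mt2 difference (0.21, limma adjusted p 0.331) did not reach the threshold of 0.05, and that of Mt4 (-1.06, adjusted p 0.0481) was close to it. Opposite regulation of the genes was therefore not shown. Capitals mark every match to the core of the metal response element, TGCACNC or TGCGCNC, on either strand.
Mt4: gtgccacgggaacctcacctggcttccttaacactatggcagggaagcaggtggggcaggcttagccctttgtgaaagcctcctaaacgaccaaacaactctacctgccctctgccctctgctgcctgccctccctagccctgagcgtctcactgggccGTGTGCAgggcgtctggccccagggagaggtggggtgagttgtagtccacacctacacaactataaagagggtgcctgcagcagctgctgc
Mt2: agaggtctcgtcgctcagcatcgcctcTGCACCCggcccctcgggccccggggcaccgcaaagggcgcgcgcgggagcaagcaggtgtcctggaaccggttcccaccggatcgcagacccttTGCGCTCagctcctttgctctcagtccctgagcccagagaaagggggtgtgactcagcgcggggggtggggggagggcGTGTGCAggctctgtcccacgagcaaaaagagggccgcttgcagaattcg

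The Mt4 window held 1 metal response element core, 91 to 85 bases before the start, and the Mt2 window held 3. Of 32851 RefSeq promoter windows of this length, 21.4% held at least 1 such core and 1.26% held at least 3. The core of the xenobiotic response element, GCGTG on either strand, was found in 28.2% of the windows. It occurred 1 time in the Mt2 window, where it overlapped the metal response element core nearest the start, and 0 times in the Mt4 window. The antioxidant response element core TGACNNNGC, found on either strand in 10.2% of windows, also occurred 1 time in the Mt2 window and 0 times in that of Mt4. A match is a description of letters, and no match says only that these letters are not in this window. The windows listed for Mt1 and Slc30a1 begin at a start site inside the annotated gene, so that their letters include part of the gene span, and they are not shown.

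Each value below is a deposited log value, taken as log2, from which that row's median over the 18 arrays had already been removed, so that 0 is the median of a row and the level of a gene cannot be set against that of another. The differences were tested with limma in a fit of 6 group means over all 18 arrays. P-values were adjusted (Benjamini-Hochberg) over the 23521 rows that name 1 gene, and 0.05 was the threshold below which a row is said to pass. The targeted gene itself, Ahr, averaged -0.68 ± 0.07 in KO and 0.43 ± 0.32 in WT epidermis at 6 h (SD, n = 3 each), a difference of -1.11 ± 0.14 (SE) with an adjusted p of 0.00549 in limma. At 0 h and 24 h the Ahr differences were -0.32 and -0.70 and did not pass (adjusted p 0.556 and 0.220). Ahr averaged -0.03 in KO and 0.29 in WT at 0 h, and -0.66 in KO and 0.04 in WT at 24 h. The KO arrays at 0 h thus all stood above the KO arrays at 6 h and 24 h for Ahr, and the reason was not tested. Where the Ahr probes lie relative to the deleted part was not analysed here. Each label also holds a number of unstated meaning. It was below 3000 for 2 of the 3 arrays of both genotypes at 6 h, 1 KO and 2 WT arrays at 0 h and 0 arrays at 24 h, and it was examined as a possible batch.

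**Figure D1:**
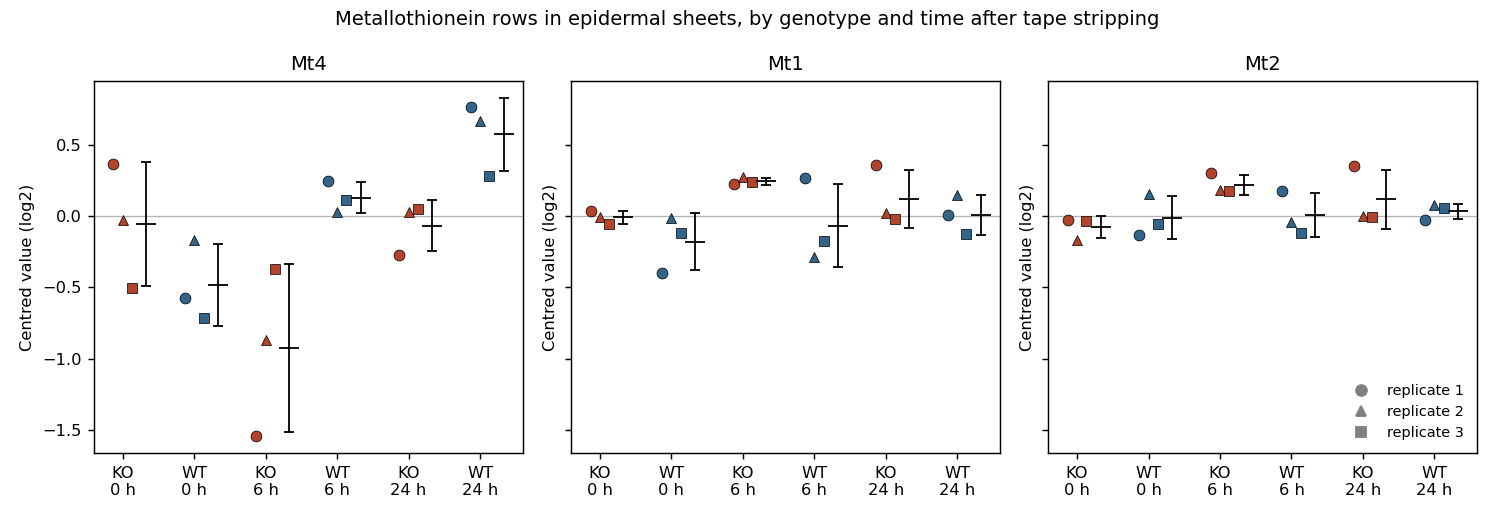
Centred log2 values of Mt4, Mt1 and Mt2 on each of the 18 arrays, KO left of WT at each time after tape stripping (h). Points are single arrays with a marker for each replicate number, and bars are group means with their SD (n = 3). The 3 KO arrays lie below the 3 WT arrays for Mt4 at 6 h and at 24 h.

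Mt4, the epithelial metallothionein, was lower in KO than in WT epidermis at 6 h after tape stripping. On the KO arrays at 6 h Mt4 stood at -1.55, -0.87 and -0.37, against 0.25, 0.03 and 0.11 on the WT arrays at that time (centred log2). All 3 KO arrays were below all 3 WT arrays, and the KO arrays were more spread out than the WT arrays. The Mt4 means were -0.93 ± 0.59 in KO and 0.13 ± 0.11 in WT epidermis (SD, n = 3 each). The difference of -1.06 ± 0.26 (SE; 95% interval -1.61 to -0.51), a 2.08-fold lower level in KO, passed in limma with an adjusted p of 0.0481. The base of the deposited logs is not stated, and if they are natural logs this fold is 2.89, with the other folds larger likewise. Mt4 was 1 of the 3 members to pass in this comparison, in which 2.18% of all rows passed in either direction and 1.82% were lower in KO. It ranked 487 by p among the 513 rows that passed, close to the threshold, where the last row to pass had an adjusted p of 0.0499 and the next 0.0503. Leaving out any of the 6 arrays of this comparison ended the call. The Mt4 difference at 6 h then ran between -1.34 and -0.75, with limma adjusted p-values of 0.0550 to 0.163. Within the arrays numbered below 3000 the Mt4 difference at 6 h was -0.69 (2 KO and 2 WT arrays), and between the 1 KO and the 1 WT array of higher number it was -1.80.

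Before injury the order of the genotypes for Mt4 was the other way, with overlapping arrays. At 0 h Mt4 stood at 0.37, -0.03 and -0.50 on the KO arrays and at -0.57, -0.16 and -0.71 on the WT arrays. The KO minus WT difference of 0.43 ± 0.26 (SE) did not pass (adjusted p 0.738 in limma), where 0.0978% of rows passed.

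By 24 h after injury the KO arrays again lay below the WT arrays. At 24 h Mt4 stood at -0.28, 0.03 and 0.05 on the KO arrays and at 0.77, 0.67 and 0.28 on the WT arrays. These groups did not overlap, as in 12.9% of all rows. The Mt4 difference of -0.64 ± 0.26 (SE), a 1.56-fold lower level in KO, did not pass in limma (adjusted p 0.688), in a comparison where 0.017% of rows passed. At 6 h, 17.7% of all rows separated the KO from the WT arrays as Mt4 did, and at 0 h 13.7% separated them. Averaged over the 3 times, the KO minus WT difference for Mt4 was -0.42 ± 0.15 (SE; adjusted p 0.251), where 0.374% of rows passed.

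Read along time, the Mt4 mean at 6 h was below that at 0 h in KO epidermis and above it in WT epidermis, and no time comparison of Mt4 passed in limma. The 6 h minus 0 h difference was -0.88 ± 0.26 in KO (SE; adjusted p 0.0663), with 4.98% of rows passing, and 0.62 ± 0.26 in WT (adjusted p 0.9999), with 0% of rows passing. The KO arrays of 6 h and 0 h overlapped, whereas the WT arrays of 6 h all stood above those of 0 h, as in 9.26% of all rows. Set against the 0 h mean of their own genotype, the 3 KO arrays at 6 h were at -1.49, -0.81 and -0.32. The 3 WT arrays at 6 h were at 0.73, 0.52 and 0.60 against theirs. The test of the difference itself, the 6 h response in KO minus that in WT, gave -1.49 ± 0.37 (SE; 95% interval -2.27 to -0.71) for Mt4 and did not pass (adjusted p 0.0760 in limma), where 0.731% of rows passed. The 3 Mt4 comparisons share arrays, so they are not separate evidence.

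At 24 h the Mt4 mean in KO epidermis was close to that at 0 h, and in WT epidermis it was the highest of the 3 times. The 24 h minus 0 h difference was -0.01 ± 0.26 in KO (SE; adjusted p 0.988), where 9.56% of rows passed. In WT it was 1.06 ± 0.26 (adjusted p 0.100), a 2.08-fold higher level, where 0.0298% of rows passed. Every WT array at 24 h stood above every WT array at 0 h, as in 17.7% of rows, and above every WT array at 6 h, as in 12.9%. The 24 h minus 6 h difference was 0.86 ± 0.26 in KO (adjusted p 0.117), where 1.24% of rows passed, and 0.44 ± 0.26 in WT (adjusted p 0.723), where 0% passed. The KO arrays of 24 h stood above those of 6 h, as in 17% of rows. The 24 h response in KO minus that in WT was -1.07 ± 0.37 (SE; adjusted p 0.374), with 0% of rows passing. For the 3 comparisons in which 0 rows passed in limma, an unadjusted p under 0.05 was reached by 1086 rows (6 h minus 0 h in WT), 1833 rows (24 h minus 6 h in WT) and 2165 rows (24 h response).

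By group mean, Mt4 was highest in WT at 24 h (0.58 ± 0.26, SD, n = 3), followed by WT at 6 h (0.13), KO at 0 h (-0.05), KO at 24 h (-0.07), WT at 0 h (-0.48) and KO at 6 h (-0.93). In this order WT at 24 h and WT at 6 h did not overlap, and each of the other neighbours did. Over the 18 arrays the Mt4 row had an SD of 0.57, larger than that of 99.6% of the rows that name 1 gene.

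**Figure D2:**
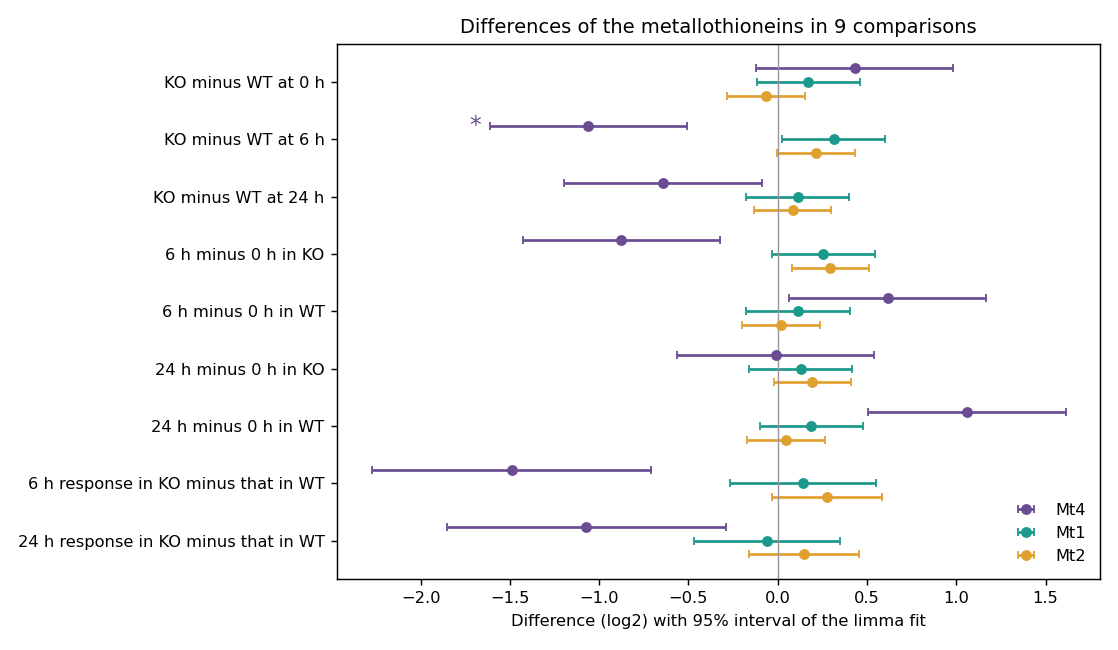
Differences (log2) of Mt4, Mt1 and Mt2 in the comparisons of genotype and of time, with the 95% interval of the limma fit as a line through each point and a star where the adjusted p was under 0.05. The starred Mt4 interval at 6 h, KO minus WT, runs from -1.61 to -0.51, and the Mt1 and Mt2 estimates all lie between -0.13 and 0.31.

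Mt1 and Mt2, the widely expressed metallothioneins, varied together and over a narrower range than Mt4. In limma 0 of their 12 comparisons passed for either gene, with an unadjusted p under 0.05 in 2 for Mt1 and 1 for Mt2. Mt1 stood at 0.23, 0.27 and 0.24 on the KO arrays at 6 h and at 0.27, -0.29 and -0.17 on the WT arrays. The 3 KO arrays were close together, and WT replicate 1 stood at their level while the other WT arrays were below. The KO minus WT difference of 0.31 ± 0.14 for Mt1 (SE; 95% interval 0.02 to 0.60) was its largest and had an adjusted p of 0.269 in limma, the lowest of its 12 comparisons. Within the arrays numbered below 3000 it was 0.49, and between the 2 arrays of higher number it was -0.04. Without WT replicate 1 at 6 h it was 0.48 and passed (limma adjusted p 0.0395).

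At 0 h Mt1 stood at 0.04, -0.01 and -0.05 on the KO arrays and at -0.40, -0.01 and -0.12 on the WT arrays, which overlapped. At 24 h it stood at 0.36, 0.02 and -0.02 on the KO arrays and at 0.01, 0.15 and -0.13 on the WT arrays, which overlapped as well. The KO minus WT differences for Mt1 were 0.17 ± 0.14 at 0 h and 0.11 ± 0.14 at 24 h (SE; adjusted p 0.847 and 0.931 in limma). In KO epidermis all Mt1 arrays at 6 h were above those at 0 h, as in 24.5% of all rows, with a difference of 0.25 ± 0.14 (SE; adjusted p 0.309). By group mean Mt1 was highest in KO at 6 h (0.25), followed by KO at 24 h (0.12), WT at 24 h (0.01), KO at 0 h (-0.01), WT at 6 h (-0.07) and WT at 0 h (-0.18), and all neighbours in this order overlapped.

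Mt2 stood at 0.30, 0.18 and 0.18 on the KO arrays at 6 h and at 0.18, -0.04 and -0.12 on the WT arrays. The highest WT array, replicate 1, reached the lowest KO arrays. The KO minus WT difference for Mt2 at 6 h was 0.21 ± 0.10 (SE; 95% interval -0.01 to 0.43; adjusted p 0.331 in limma). On the KO arrays at 0 h Mt2 stood at -0.03, -0.16 and -0.03, below every KO array at 6 h, and 24.5% of all rows separate these groups in either direction. The 6 h minus 0 h difference in KO of 0.29 ± 0.10 (SE; 95% interval 0.08 to 0.51) had the lowest adjusted p of Mt2, 0.110. On the WT arrays at 0 h it stood at -0.13, 0.16 and -0.05, and the matching WT difference was 0.02 ± 0.10 (adjusted p 0.9999). The 6 h response of Mt2 in KO minus that in WT was 0.28 ± 0.14 (SE; adjusted p 0.447).

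At 24 h Mt2 stood at 0.36, 0.0030 and -0.0030 on the KO arrays and at -0.02, 0.08 and 0.05 on the WT arrays. KO replicate 1 was the highest of all 18 arrays for Mt2, and the same array was the highest for Mt1. The KO arrays at 24 h were above those at 0 h, as in 29.5% of rows, with a Mt2 difference of 0.19 ± 0.10 (SE; adjusted p 0.282 in limma). By group mean Mt2 was highest in KO at 6 h (0.22), followed by KO at 24 h (0.12), WT at 24 h (0.04), WT at 6 h (0.01), WT at 0 h (-0.01) and KO at 0 h (-0.08). All neighbours in this order overlapped.

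The array by array likeness of Mt1 and Mt2 did not rest on the groups. Across the 18 arrays Pearson's r between Mt1 and Mt2 was 0.81 and Spearman's rho 0.80, and with the group means removed r was 0.79. Mt4 had an r of -0.13 with Mt1 and -0.34 with Mt2. These are descriptions over arrays that share their processing, and the sequences of Mt1 and Mt2 are alike enough that probes of either row may bind both transcripts, which was not tested. The SD over the 18 arrays was 0.20 for Mt1 and 0.15 for Mt2, larger than that of 76.7% and 55.2% of rows.

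**Figure D3:**
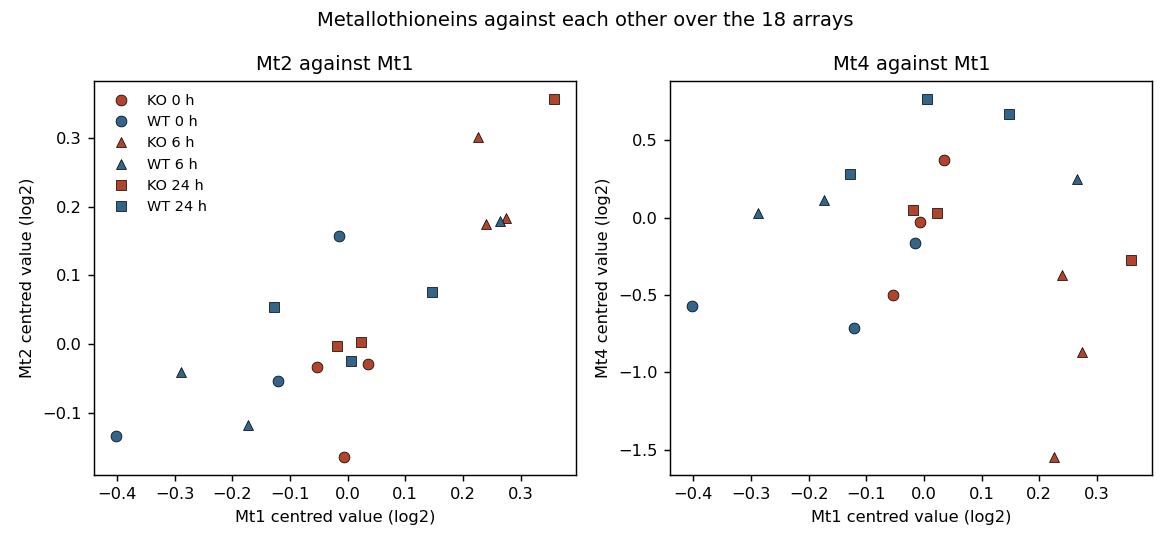
Centred log2 values of Mt2 against Mt1 and of Mt4 against Mt1, a point for each of the 18 arrays, coloured by genotype with a marker for each time. Mt1 and Mt2 vary together (r = 0.81), whereas Mt4 shows no such relation with Mt1 (r = -0.13).

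The genes whose pattern over the 18 arrays was most like that of a member were taken as the 5 highest Pearson's r among the rows searched. Each row searched names 1 gene. Left out by symbol were predicted and unnamed models, small RNAs, pseudogenes, olfactory and vomeronasal receptor genes and the members. The counts below hold for the rows searched only. For Mt4 they were Npdc1 (r = 0.84), Srcin1 (0.81), Gstm2 (0.81), Dkkl1 (0.80) and Tprgl (0.80), and these were the only 5 of the rows searched with an r of at least 0.8. For Mt1 they were Hsbp1 (0.93), Ndufb9 (0.89), Rab8a (0.89), Emc4 (0.89) and Txndc17 (0.88), among 63 of the rows searched at or above 0.8. For Mt2 they were C1qbp (0.87), Prmt1 (0.87), Timm8a1 (0.86), Ube2l3 (0.86) and Txn1 (0.86), among 46 such rows. With the group means removed, Hsbp1 stayed among the 5 for Mt1 (0.96), and none of the 5 named for Mt4 or for Mt2 did.

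**Figure D4:**
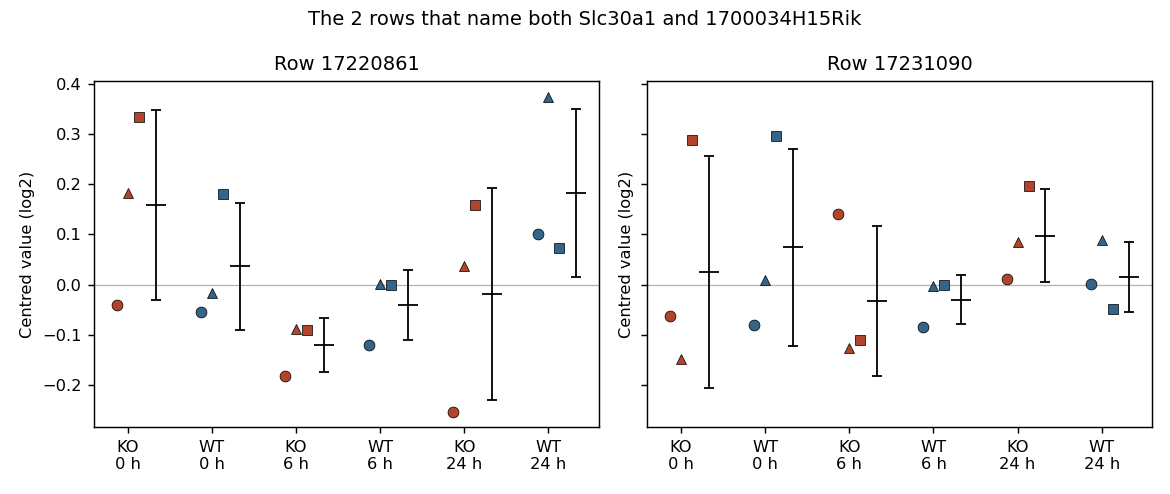
Centred log2 values of the 2 rows that name both Slc30a1 and 1700034H15Rik on each of the 18 arrays, KO left of WT at each time (h). Points are single arrays with a marker for each replicate number, and bars are group means with their SD (n = 3), all of which means lie between -0.12 and 0.18.

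The 2 rows that name Slc30a1 together with 1700034H15Rik showed small differences, none of which passed when all 33793 rows were fitted. Row 17220861 stood at -0.18, -0.09 and -0.09 on the KO arrays at 6 h and at -0.04, 0.18 and 0.33 on the KO arrays at 0 h. The KO arrays at 6 h were below all those at 0 h, and 24.5% of the rows that name 1 gene separate these groups in either direction, with a difference of -0.28 ± 0.11 (SE; adjusted p 0.210 in limma), the lowest of the row's 12 comparisons. On the WT arrays at 6 h the row stood at -0.12, 0.0011 and -0.0011, and the KO minus WT difference was -0.08 ± 0.11 (adjusted p 0.841). At 24 h it stood at -0.25, 0.04 and 0.16 on the KO arrays and at 0.10, 0.37 and 0.07 on the WT arrays, a difference of -0.20 ± 0.11 (adjusted p 0.856). The other row, 17231090, had differences between -0.10 and 0.13 in the 12 comparisons and a lowest adjusted p of 0.761. Over the 18 arrays the r between the 2 rows was 0.48.

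The other zinc transporters were measured for 8 of the 10 exporters of the Slc30a family and for all 14 importers of the Slc39a family. Of these 22 genes, 0 passed in limma between KO and WT at any time, with an unadjusted p under 0.05 for 3 at 0 h, 4 at 6 h and 2 at 24 h. Of all rows, 0.0978% passed at 0 h, 2.18% at 6 h and 0.017% at 24 h. An unadjusted p under 0.05 was reached by 1994, 3713 and 1579 of the 23521 rows at these times. The smallest adjusted p of the transporters at 6 h was 0.108, with differences between -0.30 (Slc39a6) and 0.32 (Slc39a1). Their median was -0.01, against 0.01 over all rows. Within KO epidermis 4 transporters passed between 24 h and 0 h, of 22, against 9.56% of all rows, and within WT epidermis 0 passed, against 0.0298% of all rows, with an unadjusted p under 0.05 for 1. The importer Slc39a1 (ZIP1), which brings zinc in across the plasma membrane, rose in KO epidermis. It stood at 0.40, 0.39 and 0.41 on the KO arrays at 24 h and at -0.25, -0.11 and -0.13 on the KO arrays at 0 h, a difference of 0.56 (adjusted p 0.00389). At 6 h Slc39a1 was already at 0.37, 0.25 and 0.20 in KO, a difference of 0.44 from 0 h (adjusted p 0.0225). It was the only transporter of the 22 to pass at 6 h, against 4.98% of all rows. That call at 6 h was lost on leaving out any of the 6 arrays except KO replicate 3 at 6 h, with a highest adjusted p of 0.0676.

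The exporters Slc30a4 (ZnT4), which loads zinc into vesicles, and Slc30a9 fell in KO epidermis between 0 h and 24 h. Slc30a4 stood at -0.24, -0.36 and -0.67 on the KO arrays at 24 h and at 0.11, 0.38 and 0.44 at 0 h, a difference of -0.73 (adjusted p 0.00792 in limma). Slc30a9 differed by -0.63 (adjusted p 0.0297). The importer Slc39a8 (ZIP8) fell by 0.41 between 0 h and 24 h (adjusted p 0.0354) and by 0.50 between 6 h and 24 h (adjusted p 0.0484). Between 6 h and 24 h in KO this was 1 call among the 22 transporters, against 1.24% of all rows. The calls for Slc30a9 and Slc39a8 were each lost in 5 of the 6 fits that left out 1 array, whereas those of Slc39a1 and Slc30a4 at 24 h were kept in all 6. No transporter passed in the test of the response itself, KO minus WT, with smallest adjusted p-values of 0.213 at 6 h and 0.387 at 24 h and an unadjusted p under 0.05 for 3 at each time, so a difference of these responses between the genotypes was not shown. Of all rows, 0.731% passed in this test at 6 h and 0% at 24 h.

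**Figure D5:**
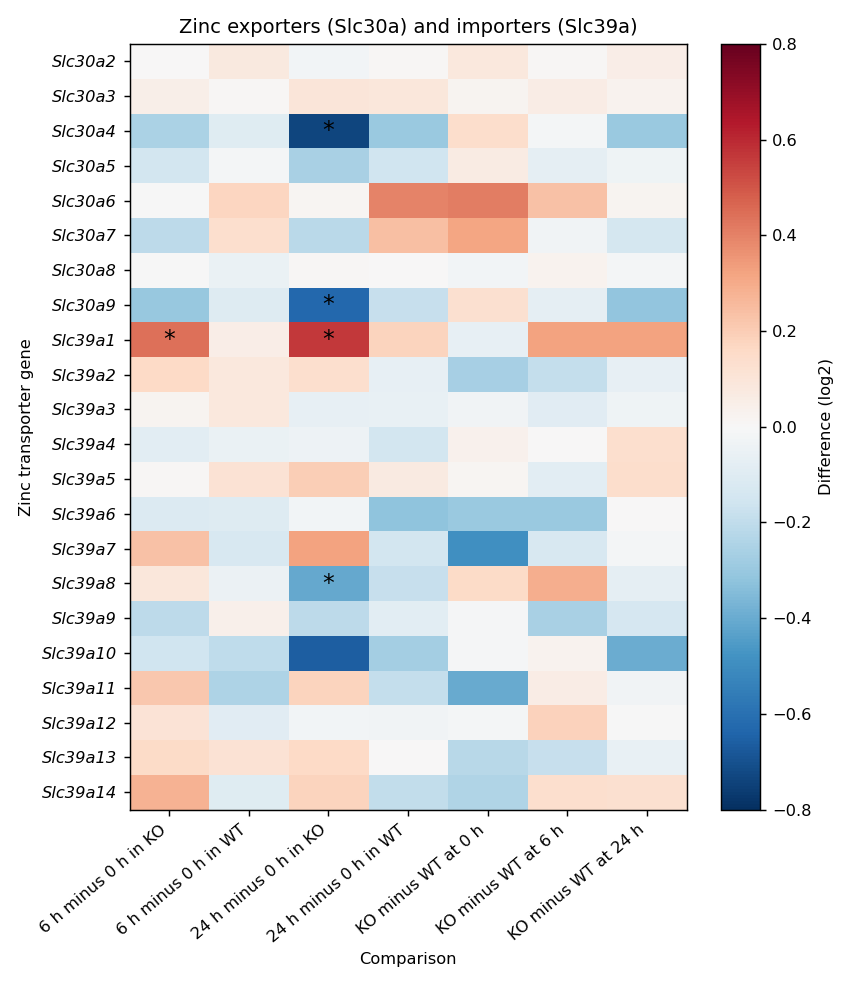
Log2 differences of the 22 measured zinc transporters in 7 comparisons (columns), with colour for the size and direction and a star where the limma adjusted p was under 0.05. The stars stand in the KO columns, with 1 at 6 h minus 0 h and 4 at 24 h minus 0 h.

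The remaining metallothionein, the metal sensor and the partners of ZnT1 did not pass in limma in any comparison. Mt3, the brain-enriched metallothionein between Mt4 and Mt2, had differences between -0.12 and 0.22 with a smallest adjusted p of 0.145. Mtf1, which encodes the metal sensor, stayed between -0.12 and 0.10 (smallest adjusted p 0.613). Tmc6 and Tmc8, whose human products form a complex with ZnT1 in keratinocytes, had smallest adjusted p-values of 0.232 and 0.439. Among the other targets of MTF1, 0 of 5 measured genes passed between KO and WT at 6 h, against 2.18% of all rows. In limma 1 of the 5 reached an unadjusted p under 0.05, against 3713 of the 23521 rows. The median of the 5 was -0.24, against 0.01 over all rows. The iron exporter Slc40a1 (ferroportin), a target of MTF1, fell in KO epidermis by 0.82 at 6 h and by 0.57 at 24 h relative to 0 h (adjusted p 0.00852 and 0.0157). Each was 1 call among the 5 measured targets, against 4.98% and 9.56% of all rows.

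The pathways that also act on Mt1 and Mt2 showed few calls. Of 10 glucocorticoid-responsive genes, 0 passed between KO and WT at 6 h in limma, against 2.18% of all rows. An unadjusted p under 0.05 was reached by 2 of the 10, against 3713 of the 23521 rows. The median of the 10 was -0.09. Ddit4, an inhibitor of mTOR signalling, fell in KO by 0.79 between 0 h and 6 h (adjusted p 0.0188) and rose by 0.78 between 6 h and 24 h (adjusted p 0.0401). The transcription factor gene Zbtb16 fell in KO by 1.02 between 0 h and 24 h (adjusted p 0.0241). Each of these was 1 call among the 10 genes, against 4.98%, 1.24% and 9.56% of all rows in the 3 comparisons. Of 9 measured oxidative stress genes of the NRF2 programme, 0 passed between KO and WT at 6 h, against 2.18% of all rows. In limma 2 of the 9 reached an unadjusted p under 0.05, and the median of the 9 was 0.01. Gclm and Gsr, enzymes of glutathione supply, rose in KO at 24 h over 0 h by 0.32 and 0.43 (adjusted p 0.0216 and 0.0225), as 2 of these 9, against 9.56% of all rows. The quinone reductase Nqo1 rose in KO by 0.76 between 6 h and 24 h (adjusted p 0.0200), as 1 of these 9, against 1.24% of all rows. Of 8 measured copper transport genes, the transporters Atp7a and Slc31a2 fell by 0.67 and 0.57 between 0 h and 24 h in KO (adjusted p 0.0429 and 0.0477), as 2 of the 8, against 9.56% of all rows.

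Other epidermal genes moved in the comparison in which Mt4 was lower, KO minus WT at 6 h, and their part in the Mt4 difference was not tested. In this comparison 1.82% of all rows passed as lower in KO, and 86 of the 23521 rows passed as higher. Of 18 genes of differentiated keratinocytes, the cells that make Mt4, 4 were lower in KO and 0 higher in limma, with a median of -0.26 and 2 of the 18 above 0. They were the cornified-layer gene Flg2 (-0.86, adjusted p 0.0402), Calml3 (-0.53, adjusted p 0.00726), Dmkn (-0.25, adjusted p 0.0300) and Sbsn (-0.25, adjusted p 0.0413). Of 10 genes of activated, wound-edge keratinocytes, 3 were higher in KO and 0 lower, with a median of 1.02. They were the keratin Krt6b (3.21, adjusted p 0.0499), the cytokine Il1b (1.80, adjusted p 0.0346) and the antimicrobial peptide Defb3 (1.04, adjusted p 0.0331). Of 9 measured genes of basal keratinocytes, Lamb3 and Krt15 were lower in KO (-0.68 and -0.61, adjusted p 0.0112 and 0.0339), and 0 were higher.

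Among the cell type markers, calls between the genotypes at 6 h were found for epidermal T cells. They were not found for the 3 measured keratinocyte markers or for those of neutrophils and monocytes or dermal fibroblasts. Other genes of keratinocytes did pass, as given above. Of the 3 keratinocyte markers, 0 had a difference above 0 and 2 had an unadjusted p under 0.05 in limma. Summarised as the mean over the measured markers of each array, 3 of 4 keratinocyte markers ranged from -0.16 to -0.06 on the KO arrays at 6 h and from -0.01 to 0.11 on the WT arrays. The 8 epidermal T cell markers ranged from -0.58 to -0.17 in KO and from 0.57 to 0.66 in WT at 6 h. In limma 5 of the 8 were lower in KO at 6 h, against 1.82% of all rows lower and 2.18% passing in either direction. The T cell difference was not limited to 6 h, as 4 of the 8 were lower at 0 h and 1 of the 8 at 24 h. Of all rows, 0.0978% and 0.017% passed at these times. The mean of the 8 markers at 0 h was -0.66 in KO and 0.64 in WT. The 6 markers of neutrophils and monocytes ranged from 0.06 to 0.55 in KO and from -0.09 to 0.14 in WT at 6 h. The 6 dermal fibroblast markers ranged from -0.01 to 0.05 in KO and from -0.10 to 0.13 in WT. Because each row is centred on its own median, the values show no absolute level, and whether a cell type was absent cannot be read from them.

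The measured chromosomal neighbours of the metallothioneins did not pass between the genotypes, where few of all rows did. Of 17 other annotated genes within 300 kb of the metallothionein cluster, 10 were measured. In limma 0 of the 10 passed between KO and WT at any time, with a smallest adjusted p of 0.0543 at 6 h. Of all rows, 0.0978% passed at 0 h, 2.18% at 6 h and 0.017% at 24 h. An unadjusted p under 0.05 was found for 2 neighbours at 0 h, 2 at 6 h and 1 at 24 h. It was reached by 1994, 3713 and 1579 of the 23521 rows at these times. The 2 neighbours at 6 h were Bbs2 (-0.49, adjusted p 0.0543) and Nlrc5 (-0.55, adjusted p 0.117), both lower in KO, as Mt4 was. Bbs2 lay just above the threshold and Mt4 (0.0481) just below it, so these calls do not set Mt4 apart from Bbs2. Bbs2, which encodes a component of the BBSome of cilia, fell in KO by 0.59 at 6 h and by 0.48 at 24 h relative to 0 h (adjusted p 0.0181 and 0.0253). Nlrc5, a regulator of MHC class I genes, fell in KO by 0.68 at 6 h (adjusted p 0.0370). These calls within KO were 2 of the 10 at 6 h, against 4.98% of all rows, and 1 of the 10 at 24 h, against 9.56%.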

How the data were processed

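Per the labels' protocols, total RNA of epidermal sheets was turned into biotin-labelled cDNA and hybridised to Affymetrix gene arrays. The authors deposited 1 table of log2 values, in which each row is centred on its median over the 18 arrays. The base is taken as 2, since a natural log cannot be told apart from the values, and the sources used here do not give the authors' normalisation. Groups came from the sample titles, and the number of arrays limits the precision. Rows were named through the platform's gene table. Of 33793 rows, 23521 named 1 gene, 1814 several and 8458 none. No filter on dim rows was possible, because centring removed the levels.

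The fit used limma 3.58.1 in R 4.3.3 (lmFit and eBayes, 6 group means, 12 contrasts), tested on simulated data, with Benjamini-Hochberg adjustment. Where a gene had several rows, the row with the largest SD was taken. All 4 members were planned as tested, and 3 were, because Slc30a1 has no row of its own. The members and lists were chosen with earlier results of these data known. Named genes were the members, the zinc and partner lists, and in other lists genes that passed in the comparisons described. RefSeq promoters (GRCm38.p6) were searched in Python 3.11.15. Each array was treated as 1 animal, from the series' text on littermates. The alternatives were another normalisation, array weights, other variance models, all rows, the label number, the replicate number and leave-one-out fits.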

Additional observations from a re-analysis of the deposited data

Results flagged for a closer look

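By group mean, the 6 h response of Mt4 ran in opposite directions in the genotypes. Neither change from 0 h passed in limma (adjusted p 0.0663 in KO and 0.9999 in WT). The KO arrays of 6 h and 0 h overlapped, and 9.26% of all rows separate the WT arrays of these times as Mt4 did. The response in KO minus that in WT was -1.49 on the log2 scale (limma, adjusted p 0.0760), so the test of the difference itself did not pass. It was noted because every array of a genotype at 6 h lay on the same side of its own 0 h mean. That pattern takes no account of the spread at 0 h, where the KO arrays ran from -0.50 to 0.37 (centred log2). The share of all rows with the same pattern was not computed. The 3 KO arrays at 6 h stood at -1.49, -0.81 and -0.32 relative to the KO mean at 0 h. The 3 WT arrays at 6 h stood at 0.73, 0.52 and 0.60 relative to the WT mean at 0 h.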

How the results depend on the processing

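The Mt4 call in KO minus WT at 6 h rested on the setting. The count of members past the threshold was 1 as reported. It was 0 with the values quantile normalised again (Mt4 adjusted p 0.0744 in limma), with all rows tested (0.0661), with limma's trend and robust options (0.0559), with a replicate block within time (0.101) and with the compared groups alone (0.207). Within the arrays numbered 3000 or above it was also 0 (0.210), but there 1 KO array stands against 1 WT array at 6 h and the spread is assumed from the other groups, so this says nothing about stability. Leaving out single arrays gave 0 to 1, and the 1 was Mt1 without WT replicate 1. Within the low numbers the 1 was also Mt1 (0.49, adjusted p 0.0246), with Mt4 at an adjusted p of 0.120. The direction of the Mt4 difference at 6 h was the same in all these fits, from -1.80 to -0.69.

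Other counts were 0 as reported. For 6 h minus 0 h in KO the count became 1, Mt4, with the number class as a term (adjusted p 0.0311) and without KO replicate 3 at 6 h (0.0334), and single arrays left out gave 0 to 1. It was also 1 within the high numbers (0.0340), where KO at 6 h is the 1 array with the lowest Mt4 value and its spread is assumed from the other groups. For 24 h minus 0 h in WT it became 1 with array weights (Mt4, 0.0489). For the 6 h response in KO minus that in WT it became 1 with array weights (Mt4, 0.0285) and with the number class as a term (Mt4, 0.0456).

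Signs turned where differences were small, and none of these passed. Within the high numbers Mt2 KO minus WT at 0 h was 0.034, Mt1 KO minus WT at 6 h -0.039, Mt4 24 h minus 0 h in KO 0.20, the 24 h minus 6 h differences in WT -0.26 for Mt1 and -0.14 for Mt2, and the 6 h response difference of Mt1 -0.41. Within the low numbers the 6 h minus 0 h differences in WT were -0.16 for Mt1 and -0.13 for Mt2, the Mt2 value was -0.0062 with array weights, and Mt4 24 h minus 0 h in KO was 0.11 with the number class as a term. Leaving out single arrays, Mt1 ran from -0.0066 to 0.18 in KO minus WT at 24 h, -0.052 to 0.23 in 6 h minus 0 h in WT, -0.038 to 0.24 in 24 h minus 6 h in WT and -0.18 to 0.053 in the 24 h response difference. Mt2 ran from -0.13 to 0.018 in KO minus WT at 0 h, -0.036 to 0.14 at 24 h, -0.069 to 0.10 in 6 h minus 0 h in WT, -0.016 to 0.13 in 24 h minus 0 h in WT and -0.034 to 0.11 in 24 h minus 6 h in WT. Mt4 ran from -0.24 to 0.20 in 24 h minus 0 h in KO. The cause was not tested.

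The replicate numbers do not pair the samples by the labels, and same-numbered KO and WT arrays had correlations of their deviations between -0.46 and 0.25. With the replicate block the Mt4 difference at 6 h kept its value of -1.06, and the block changed no other count of members. It could be fitted for the comparisons between genotypes and not for time within a genotype. If the values are natural logs, all differences scale alike, the printed folds become larger and no call changes. Among the zinc transporters, the calls of Slc39a1 and Slc30a4 at 24 h minus 0 h in KO were kept in all 14 other fits. The call of Slc39a1 at 6 h minus 0 h was lost in 8 of 15, those of Slc30a9 and Slc39a8 at 24 h minus 0 h in 6 and 7 of 14, and that of Slc39a8 at 24 h minus 6 h in 11 of 14, with no change of sign.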
